A study of Mus musculus with 24 samples.

Results

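Chemokines are small secreted proteins that steer the movement of leukocytes, and their receptors are the G protein-coupled receptors through which those cells sense them. The chemokine and chemokine receptor genes were taken from the array annotation by symbol: all Ccl, Cxcl, Ccr and Cxcr genes with a number, together with Cx3cl1, Cx3cr1, Xcl1 and Xcr1, and without the lymphoid set Ccl19, Ccl21, Cxcl13, Ccr7 and Cxcr5. This gave 51 genes of the 24647 with a symbol on the array, 34 of them ligands and 17 of them receptors. Each gene was read from the transcript cluster of its highest mean, and the 41 whose mean reached a floor of 5 on the log2 scale in 1 or both genotypes entered the tests.

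The values came from perigonadal fat of 24 male C57BL/6 mice, each hybridised to its own Affymetrix mouse array. There were 12 Control mice, littermates of genotype AdipoQ-LpL -/-, and 12 AdipoQ-LPL mice, of genotype AdipoQ-LpL -/+, which carry a lipoprotein lipase (LPL) transgene driven by the promoter of adiponectin, a gene of fat cells. All the mice were 9.5 weeks old when they entered calorimetry chambers, and all had been on a diet with 60% of its calories from fat for 10 days when the fat was taken, so no group was on chow. The question addressed is whether an acute high fat diet left a different chemokine profile in fat with the transgene than in fat without it.

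In lean fat, resident macrophages, mast cells, lymphocytes and eosinophils sit among the adipocytes, and chemokines from adipocytes, stromal cells and the leukocytes themselves set which cells enter. With obesity, Ccl2 acting on Ccr2 is best known for drawing monocytes into fat, where they become macrophages. Other branches of the family serve eosinophils (the eotaxins), T cells (the ligands of Cxcr3), neutrophils (the ligands of Cxcr2) and the retention of blood cells in tissues (Cxcl12 and Cxcr4).

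The animal numbers in the labels fell into 2 sets, 289 to 437 and 842 to 877, and these are called the first and the second number set. The first held 5 Control and 8 AdipoQ-LPL mice, and the second held 7 and 4. Array medians over the tested clusters lay between 6.86 and 6.97 in the first set and between 7.22 and 7.29 in the second, so the sets did not overlap, and the genotypes were unevenly spread over them. The genotype difference was therefore fitted over all mice, with the number set in the model (the block), and for each set alone. A difference given with no such mention is over all mice. Adipocyte genes were high in every group, with a mean log2 value of 11.81 in Control and 12.00 in AdipoQ-LPL for Adipoq and of 11.66 and 11.63 for Plin1. The Lpl cluster averaged 13.63 in the 12 Control mice (SD 0.15) and 13.53 in the 12 AdipoQ-LPL mice (SD 0.18), and the groups overlapped. The sources used here do not state whether its probes read the transgene, so it does not check the labels.

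No chemokine or receptor gene differed between the genotypes at an adjusted p under 0.05 in the limma fit over all mice. That fit called 0 of the 41 tested members, beside 0.0099% of the 20208 clusters tested, which is 2 clusters. At the thresholds of the study, a minimum fold and an unadjusted p under 0.02, 0 of 41 members passed, beside 0.584% of all clusters. With the median of each array subtracted, 1 of 41 did (Cxcl11, difference 0.34), beside 0.579% of all clusters. A single member, Cxcl11, had an unadjusted p under 0.05, beside 5.63% of all clusters. The lowest adjusted p of any member was 0.691. Array weights changed this: a fit with them and without the number set called 24 of 41 members (22 lower in AdipoQ-LPL mice), beside 74.1% of all clusters, and gave low weight to the Control mice of the first set and the AdipoQ-LPL mice of the second. For no member were the 12 Control values separate from the 12 AdipoQ-LPL values, beside 0% of all clusters.

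Over all mice the difference was no larger than the SD between mice of the same genotype and set for 37 of the 41 members, the other 4 being Cxcl11, Ccl27a, Ccl27b and Ccl25. With the block it was larger for Cxcl11 alone. The median log2 difference, AdipoQ-LPL minus Control, was -0.06 over the 41 members and -0.08 over all clusters tested, with 16 members above 0 and 25 below, where 21.1% of all clusters were above 0. With the number set as a block the median was 0.04, with 27 above 0 and 14 below, where 53.7% of all clusters were above 0. The balance of directions thus turned with the treatment of the number sets, and 11 members had opposite signs in the 2 fits. The SD between mice of the same genotype and set ran from 0.09 to 1.05 among the members, with a median of 0.23, and only Ccl28 had a block difference larger than the minimum fold of the study. By role, the block difference was above 0 for 16 of the 29 tested ligands and for 11 of the 12 tested receptors. In the fit over all mice the same split was 9 of 29 and 7 of 12. The plot of genotype differences sets the values over all mice beside those with the block.

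**Figure D1:**
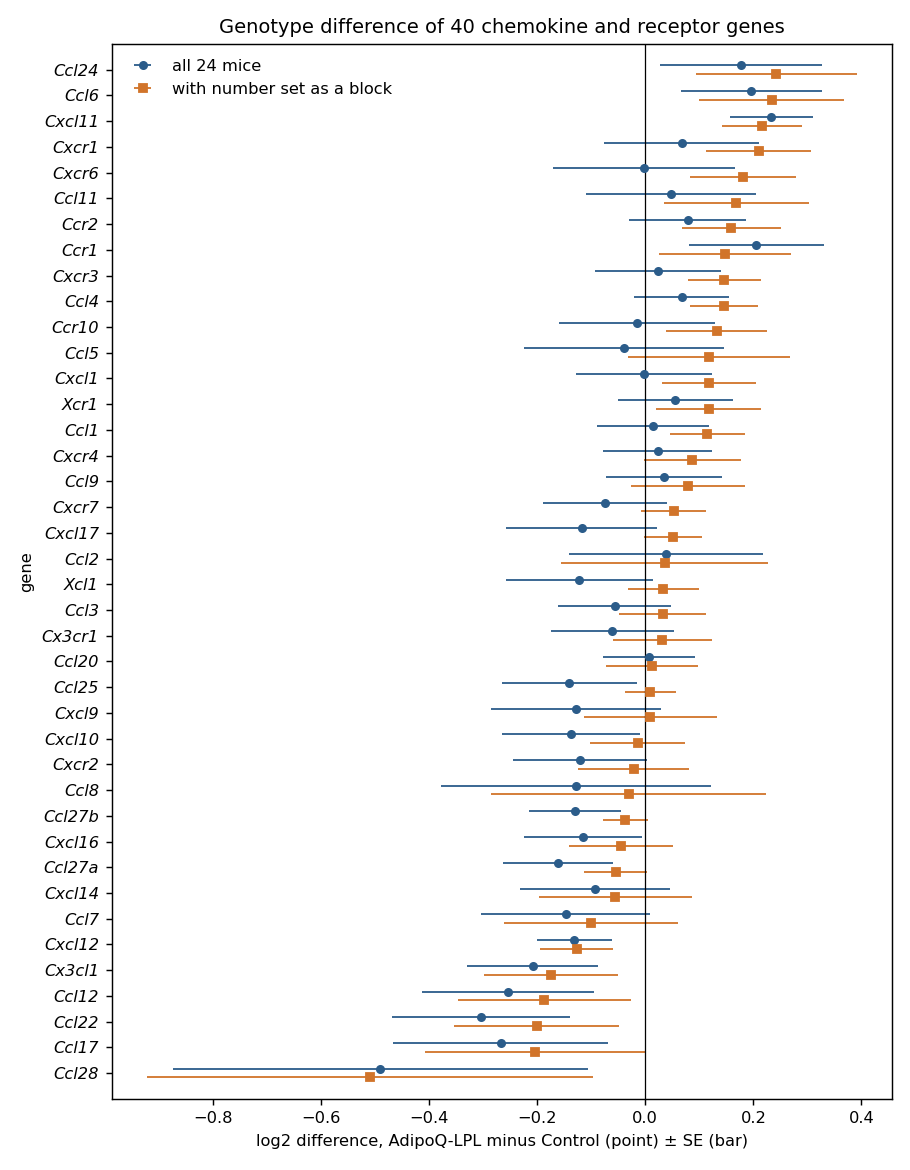
Log2 difference (AdipoQ-LPL minus Control) of 40 of the 41 tested chemokine and receptor genes, with genes on the vertical axis. Circles are from all 24 mice and squares from the fit with the number set as a block, bars are ± SE. Ccl28 lies lowest with the widest bars (-0.49 and -0.51), most squares lie to the right of their circles, and Cxcl11 lies above 0 in both fits (0.23 and 0.22).

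The interferon-induced ligands of Cxcr3, which draws effector T cells, gave no call. Cxcl11 ran from 5.39 through a median of 5.61 to 5.87 in Control mice and from 5.44 through 5.86 to 6.11 in AdipoQ-LPL mice. AdipoQ-LPL mice were higher on the whole, 10 of the 12 lying above the Control mean of their own set, and the groups overlapped. Such counts of mice are given as description, and no share over all clusters was taken for them. The log2 difference was 0.23 (SE 0.08, limma p = 0.00529, adjusted p = 0.691), a fold of 1.18, and with the block it was 0.22 (SE 0.07, limma p = 0.00784). Within the first set it was 0.17 (exact permutation test, two-sided, p = 0.166, n = 5 and 8) and within the second 0.27 (exact permutation test, two-sided, p = 0.0212, n = 7 and 4, limma adjusted p = 0.438). In the second set alone, 6 of 41 members had an unadjusted limma p under 0.05, beside 1895 of 20208 clusters, and 0 members were called. RefSeq lists Cxcl11 in the mouse reference, a C57BL/6 genome, as a transcribed pseudogene, so no protein is annotated for it there.

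Cxcl9 ran from 9.60 through 10.19 to 11.27 in Control and from 9.56 through 10.06 to 10.64 in AdipoQ-LPL mice, with a difference of -0.13 (SE 0.16) over all mice and 0.01 (SE 0.12) with the block. Cxcl10 ran from 5.80 through 6.49 to 7.06 and from 5.92 through 6.32 to 6.79, with -0.14 (SE 0.13) and -0.01 (SE 0.09). Both groups overlapped over most of their ranges for each gene. Their receptor Cxcr3 had a block difference of 0.15 (SE 0.07, limma p = 0.0395) and, over all mice, of 0.02 (SE 0.12).

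Cxcl9, Cxcl10 and Cxcl11 are neighbours on chromosome 5, and the promoters of the pair that encodes ligands are printed because interferon induces both. Both are from RefSeq on GRCm38.p6, read 5′ to 3′ on the strand of the gene, 250 bases before the start and 50 after it, with motif matches in capitals.
Cxcl9, chr5:92328030-92328329, minus strand: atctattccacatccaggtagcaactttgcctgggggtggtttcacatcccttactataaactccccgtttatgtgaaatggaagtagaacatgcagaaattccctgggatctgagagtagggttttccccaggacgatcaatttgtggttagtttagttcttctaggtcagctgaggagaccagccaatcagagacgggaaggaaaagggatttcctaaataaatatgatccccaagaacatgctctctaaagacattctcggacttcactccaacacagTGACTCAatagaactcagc
Cxcl10, chr5:92348840-92349139, minus strand: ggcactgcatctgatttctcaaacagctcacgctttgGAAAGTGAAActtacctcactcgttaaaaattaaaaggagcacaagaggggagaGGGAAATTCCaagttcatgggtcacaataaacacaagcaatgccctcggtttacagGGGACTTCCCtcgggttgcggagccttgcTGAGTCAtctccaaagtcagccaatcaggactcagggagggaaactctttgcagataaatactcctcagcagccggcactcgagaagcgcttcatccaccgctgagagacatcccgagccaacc
The Cxcl10 window held 1 match to the interferon-stimulated response element (TTTC, 2 bases of any kind, TTTC, searched on both strands, here on the opposite strand), 2 matches to the NF-kB motif and 1 to the AP-1 motif (TGANTCA). The Cxcl9 window held 1 match to the AP-1 motif. Of the 32851 promoters in the table, 3.44% held the response element, 4.51% the NF-kB motif and 7.81% the AP-1 motif. A match describes the letters and is not a measured binding site. From mouse to mouse Cxcl9 and Cxcl10 had r = 0.41 and rho = 0.34 in the first set (permutation p = 0.159 and 0.254), and r = 0.16 and rho = -0.14 in the second (permutation p = 0.646 and 0.69), none past the test.

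The ligands grouped here as monocyte-drawing (Ccl2, Ccl7, Ccl8 and Ccl12) gave no call and had a wide spread between mice. Ccl2 ran from 7.28 through 7.92 to 9.16 in Control and from 7.13 through 8.00 to 8.63 in AdipoQ-LPL mice. The highest value, in Control 1, and the lowest, in AdipoQ-LPL 8, both came from the first set, and the groups overlapped throughout. The difference was 0.04 (SE 0.18, limma p = 0.832), and 0.04 (SE 0.19) with the block.

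Ccl7, another ligand of Ccr2, ran from 7.01 through 7.67 to 8.70 and from 6.58 through 7.58 to 8.16, a difference of -0.15 (SE 0.16). Ccl8 ran from 6.55 through 7.66 to 8.57 in Control and from 6.62 through 7.21 to 8.84 in AdipoQ-LPL mice, which differ by -0.13 on the log2 scale (SE 0.25). Ccl12, a mouse relative of Ccl2, ran from 4.69 through 5.27 to 5.95 and from 4.10 through 4.98 to 5.66, a difference of -0.25 (SE 0.16, limma p = 0.125), or -0.19 with the block. It entered the fit through its Control mean of 5.24 alone, its AdipoQ-LPL mean being 4.98, and was the only such member, so its difference and p are no support for a lower AdipoQ-LPL value. None of these passed, each pair of groups overlapped, and the 4 ligands had differences of both signs. Ccl2 was at 7.99, 7.97, 7.92 and 8.02 on average in Control first, AdipoQ-LPL first, Control second and AdipoQ-LPL second, a range far smaller than its SD of 0.49 between mice of a group.

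Ccl2 and Ccl7 rose and fell together from mouse to mouse. They are neighbours on chromosome 11, in a run that continues with Ccl11, Ccl12, Ccl8 and Ccl1. In the first set r was 0.94 and Spearman's rho 0.91 over 13 mice (permutation p = 1e-05 and 5e-05, adjusted 8e-05 and 0.0004 over the 16 correlations of 8 pairs in 2 sets). Here 1e-05 is the smallest p that 100000 permutations can give. Without Control 1 and AdipoQ-LPL 8, the mice farthest from the median of Ccl2, r was 0.88 (permutation p = 0.00028). In the second set r was 0.80 and rho 0.70 over 11 mice (permutation p = 0.00266 and 0.0194, adjusted 0.0106 and 0.062), but without AdipoQ-LPL 2 and Control 11 it was 0.41 (permutation p = 0.285) and no longer passed. The plot of member pairs shows this.

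**Figure D2:**
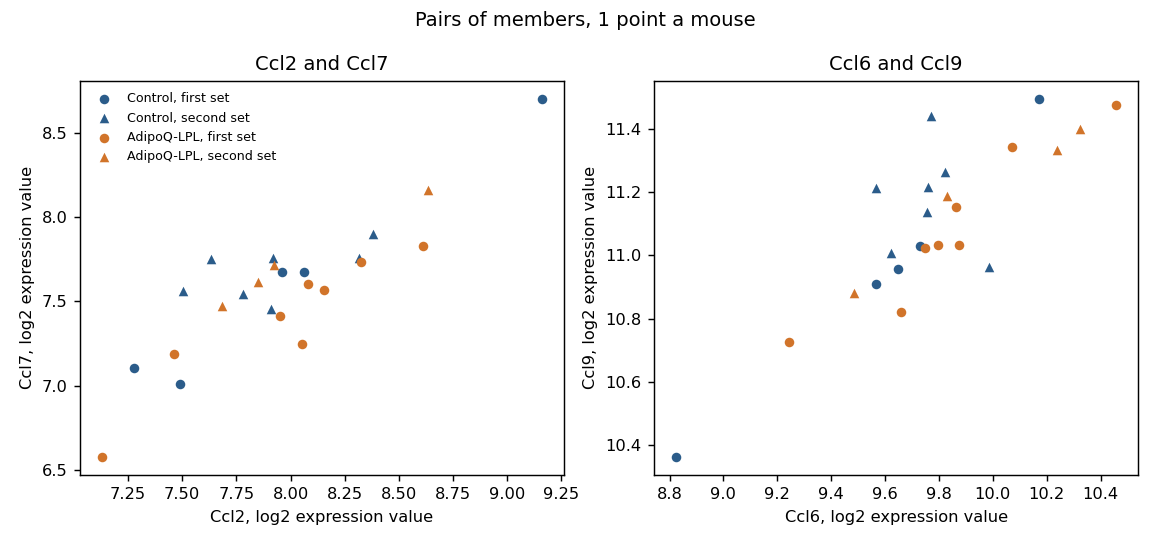
Log2 values of Ccl7 against Ccl2 and Ccl9 against Ccl6, 1 point a mouse, with colour for genotype and shape for number set. The points of the first set lie close to a line for Ccl2 with Ccl7 (r = 0.94) and Ccl6 with Ccl9 (r = 0.97), with mice of both genotypes mixed along it.

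Ccl6 and Ccl9 are CC ligands of rodents that act on Ccr1 and are made by macrophages and other myeloid cells. Ccl6 ran from 8.83 through 9.74 to 10.17 in Control and from 9.24 through 9.85 to 10.46 in AdipoQ-LPL mice, and 10 of 12 AdipoQ-LPL mice lay above the Control mean of their set. The groups overlapped, and the difference was 0.20 (SE 0.13, limma p = 0.144), or 0.23 (SE 0.13, limma p = 0.0929) with the block. Without Control 3 it was 0.12 over all mice. Ccl9 ran from 10.36 through 11.08 to 11.50 and from 10.73 through 11.09 to 11.48, a difference of 0.03 (SE 0.11). Control 3 and AdipoQ-LPL 8 held the lowest values of both genes, 8.83 and 9.24 for Ccl6 and 10.36 and 10.73 for Ccl9.

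Across the mice of the first set Ccl6 and Ccl9 had r = 0.97 and rho = 0.96 (permutation p = 1e-05 for each, adjusted 8e-05 and 0.00016, the smallest p that the permutations can give). Without Control 3 and AdipoQ-LPL 7 r was 0.94 (permutation p = 3e-05). In the second set r was 0.54 and rho 0.52 (permutation p = 0.0845 and 0.107), and r was 0.25 without AdipoQ-LPL 2 and AdipoQ-LPL 1 (permutation p = 0.531). The genes are neighbours on chromosome 11, and their promoters are printed because they resemble each other near the start. Both are from RefSeq on GRCm38.p6, read 5′ to 3′ on the strand of the gene, 250 bases before the start and 50 after it, with capitals for runs of at least 10 bases that both windows hold.
Ccl6, chr11:83593038-83593337, minus strand: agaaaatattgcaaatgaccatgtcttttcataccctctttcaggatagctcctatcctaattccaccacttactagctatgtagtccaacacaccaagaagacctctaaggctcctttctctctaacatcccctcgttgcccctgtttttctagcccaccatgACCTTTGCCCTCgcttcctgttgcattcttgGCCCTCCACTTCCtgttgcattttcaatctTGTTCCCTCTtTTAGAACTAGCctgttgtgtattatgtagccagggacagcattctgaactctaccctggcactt
Ccl9, chr11:83578587-83578886, minus strand: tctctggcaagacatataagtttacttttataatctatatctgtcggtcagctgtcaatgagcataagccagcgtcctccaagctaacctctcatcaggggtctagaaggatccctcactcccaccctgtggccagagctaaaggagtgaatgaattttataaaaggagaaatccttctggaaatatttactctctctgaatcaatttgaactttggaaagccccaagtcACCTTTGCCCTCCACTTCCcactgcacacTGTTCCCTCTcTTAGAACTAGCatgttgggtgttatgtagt
The capitals cover 46 bases of Ccl6 in 4 runs and 40 bases of Ccl9 in 3 runs, and the longest exact run in common has 13 bases. They lie toward the 3′ end of each window. Of the motifs searched, the Ccl9 window held 1 match to NF-kB and 1 to AP-1, and the Ccl6 window held none.

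The inflammatory CC ligands Ccl3, Ccl4 and Ccl5 gave no call either. Ccl3 ran from 5.28 through 5.97 to 6.35 in Control and from 5.58 through 5.87 to 6.12 in AdipoQ-LPL mice, and Ccl5, a product of T and NK cells, from 6.80 through 7.84 to 9.02 and from 7.30 through 7.85 to 8.41. Their differences were -0.06 (SE 0.10) and -0.04 (SE 0.19) over all mice, and 0.03 (SE 0.08) and 0.12 (SE 0.15) with the block. Ccl4 ran from 5.67 through 6.10 to 6.34 and from 5.85 through 6.13 to 6.66. With the block its difference was 0.15 (SE 0.06, limma p = 0.03), and 11 of 12 AdipoQ-LPL mice lay above the Control mean of their set, while over all mice it was 0.07 (SE 0.09, limma p = 0.451). With Ccl6 and Ccl9, all 5 had block differences above 0. Ccl3 and Ccl4, neighbours on chromosome 11, had r = 0.21 and rho = 0.25 in the first set (permutation p = 0.5 and 0.416) and -0.26 and -0.25 in the second (permutation p = 0.446 and 0.453).

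Among the CC receptors, Ccr2 marks inflammatory monocytes. It ran from 7.63 through 8.47 to 8.81 in Control and from 8.24 through 8.49 to 8.85 in AdipoQ-LPL mice. The groups shared their upper range, and the lowest values were Control mice of the first set, down to Control 3. The difference was 0.08 (SE 0.11, limma p = 0.479), or 0.16 (SE 0.09, limma p = 0.0952) with the block, and 11 of 12 AdipoQ-LPL mice were above the mean of the Control mice of their set. In the first set alone it was 0.27 (exact permutation test, two-sided, p = 0.0777, n = 5 and 8), and within the second 0.02 (exact permutation test, two-sided, p = 0.788, n = 7 and 4). Without Control 3, which held the lowest value, the difference over all mice was 0.0046.

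Ccr1, the receptor of Ccl6 and Ccl9 on myeloid cells, ran from 5.39 through 6.13 to 6.48 in Control and from 5.84 through 6.21 to 6.94 in AdipoQ-LPL mice. The highest values were AdipoQ-LPL 7 and AdipoQ-LPL 11 of the first set, and the groups overlapped. The difference was 0.21 (SE 0.12, limma p = 0.111), or 0.15 (SE 0.12) with the block, with 0.30 in the first set and -0.04 in the second. Ccr10, a receptor of lymphocytes that answers Ccl27 and Ccl28, had a difference of -0.02 (SE 0.14) over all mice and 0.13 (SE 0.09) with the block.

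Macrophage markers lay above 0, as did Ccl6, Ccl9, Ccr1 and Ccr2 over all mice. Other members described here as made or carried by macrophages lay below 0 over all mice: Cx3cr1 (-0.06), Cxcl16 (-0.12), Ccl17 (-0.27) and Ccl22 (-0.30). All 10 genes of a macrophage list (among them Csf1r, Mrc1, Cd14, Cd68 and Cd163) had differences above 0 in both fits. Of all clusters, 21.1% were above 0 over all mice and 53.7% with the block. None of the 10 was called, and 3 had an unadjusted p under 0.05 over all mice, beside 5.63% of all clusters. Their mean log2 value lay between 8.76 and 9.55 in Control and between 9.29 and 9.91 in AdipoQ-LPL mice. The lowest p was that of Csf1r, the receptor of macrophage colony-stimulating factor, with a difference of 0.22 (SE 0.09, limma p = 0.0213, adjusted p = 0.691). The part of these markers in the values of Ccl6, Ccr1 and Ccr2 was not tested. In bulk fat, fewer or more cells of a type and less or more RNA per cell cannot be told apart.

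The eotaxins, which act on Ccr3 of eosinophils, gave no call. Ccl11 ran from 9.68 through 10.70 to 11.17 in Control and from 9.82 through 10.75 to 11.55 in AdipoQ-LPL mice, which differ by 0.05 on the log2 scale (SE 0.16). Ccl24 ran from 7.19 through 8.19 to 8.96 and from 8.03 through 8.25 to 9.00. The lower tail of Ccl24, at 7.73 and below, was held by Control 2 and Control 3, and otherwise the groups overlapped. Its difference was 0.18 (SE 0.15, limma p = 0.248), or 0.24 (SE 0.15, limma p = 0.117) with the block, and 10 of 12 AdipoQ-LPL mice were above the Control mean of their set. Without Control 3 the Ccl24 difference over all mice was 0.085. Ccl26 and Ccr3 were below the floor. In the first set Ccl11 and Ccr3 had r = 0.69 and rho = 0.78 (permutation p = 0.00903 and 0.00233, adjusted 0.0289 and 0.0124), but without Control 3 and AdipoQ-LPL 8 r was 0.54 (permutation p = 0.077). Leaving them out also narrows the range of Ccl11, so whether the correlation rests on those mice is not shown. In the second set r was -0.14 and rho -0.19 (permutation p = 0.685 and 0.575), and the difference between the sets was not tested. Ccr3 lay between 3.91 and 4.82 over all mice.

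Cxcl12, which holds leukocytes and progenitors in tissues, ran from 9.22 through 9.45 to 9.86 in Control and from 9.16 through 9.38 to 9.48 in AdipoQ-LPL mice. The highest values were all Control mice, and the lower ranges overlapped. The difference was -0.13 (SE 0.07, limma p = 0.0702), and the same with the block (limma p = 0.0719). Within the number sets it was 0.01 in the first (exact permutation test, two-sided, p = 0.841, n = 5 and 8) and -0.30 in the second (exact permutation test, two-sided, p = 0.0303, n = 7 and 4, limma adjusted p = 0.438). A test of the difference between these values gave -0.31 (limma interaction, p = 0.0177, adjusted p = 0.603), the lowest p of any member. No member passed the interaction test, beside 0% of all clusters, and 2 members had an unadjusted p under 0.05, beside 7.95% of all clusters.

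Its receptors gave no call. Cxcr4 had a difference of 0.02 (SE 0.10), or 0.09 with the block. Cxcr7, the scavenging receptor now called Ackr3, had -0.07 (SE 0.12) over all mice and 0.05 (SE 0.06) with the block. Cxcl14, made by stroma and brown fat, ran from 6.85 through 7.14 to 8.65 in Control and from 6.88 through 7.10 to 7.50 in AdipoQ-LPL mice, with Control 6 highest and the next mouse at 7.51. Cxcl16, a membrane-bound ligand of Cxcr6 made by macrophages and endothelium, ran from 7.62 through 8.34 to 8.59 and from 7.78 through 8.13 to 8.43, a difference of -0.12 (SE 0.11). Cxcl17, a mucosal chemokine, had a difference of -0.12 (SE 0.14) over all mice and 0.05 (SE 0.05) with the block. None of the 6 passed. Neither Cxcl12 with Cxcl14 nor Cxcl16 with Cxcr6 passed the permutation test in either set after adjustment (r from -0.22 to 0.58).

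**Figure D3:**
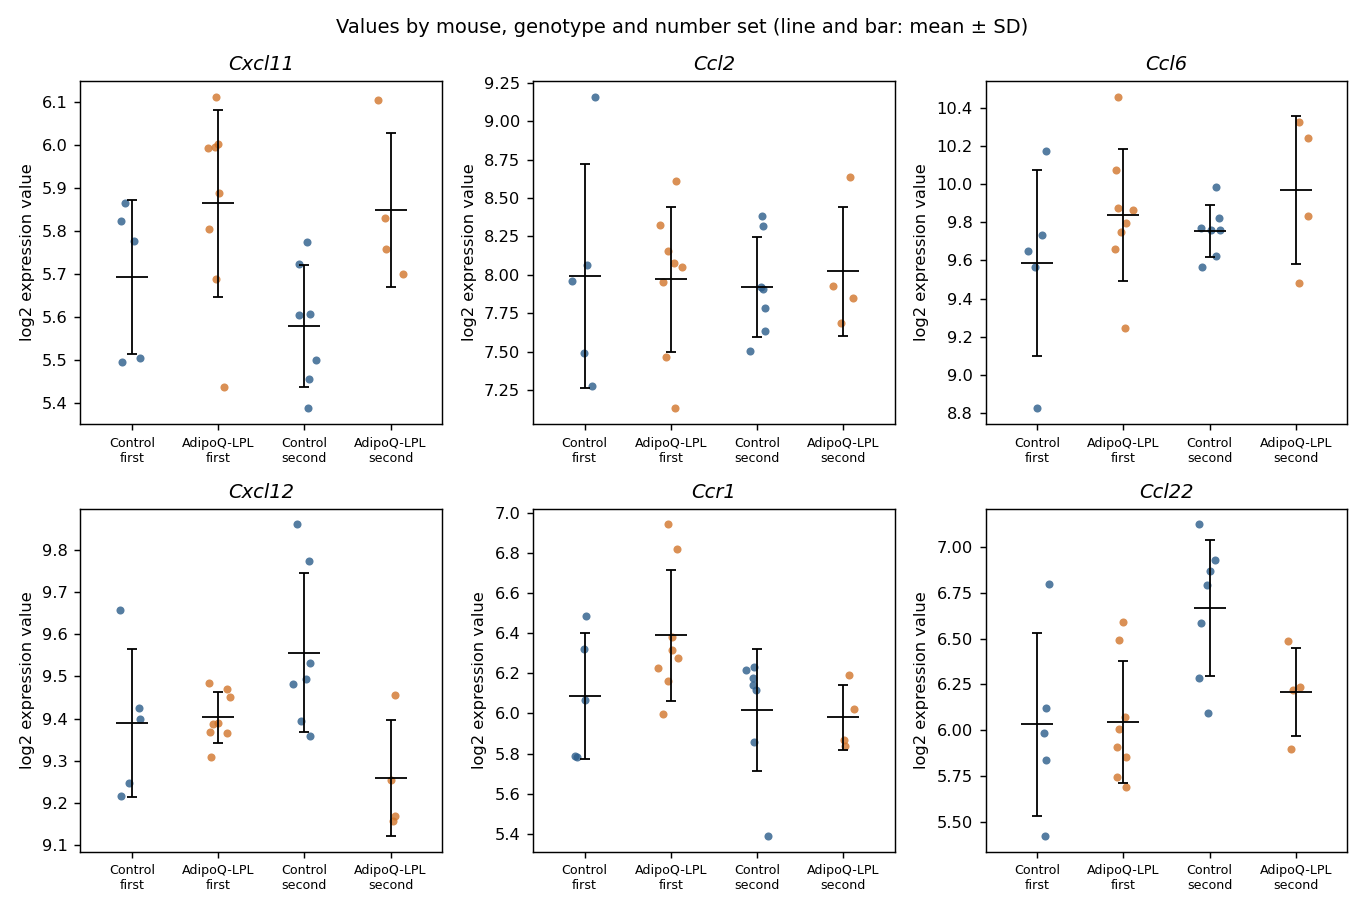
Log2 expression value of 6 members in each mouse, by genotype and number set (5, 8, 7 and 4 mice from left to right), with the line at the mean and bars of ± SD. The genotypes overlap in each panel, and Cxcl12 and Ccl22 have differences of -0.30 and -0.46 in the second number set and of 0.01 each in the first.

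Ccl17 and Ccl22, made by dendritic cells and macrophages, are the ligands of Ccr4 on regulatory and type 2 helper T cells. Ccl22 ran from 5.42 through 6.44 to 7.12 in Control and from 5.69 through 6.04 to 6.59 in AdipoQ-LPL mice. The upper range was held by Control mice, most of them of the second set, and the rest overlapped. The difference was -0.30 (SE 0.16, limma p = 0.0762), or -0.20 (SE 0.15, limma p = 0.202) with the block, with 0.01 in the first set (exact permutation test, two-sided, p = 0.953, n = 5 and 8) and -0.46 in the second (exact permutation test, two-sided, p = 0.0606, n = 7 and 4).

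Ccl17 ran from 5.39 through 6.10 to 7.21 in Control and from 5.46 through 5.87 to 6.92 in AdipoQ-LPL mice, which differ by -0.27 on the log2 scale (SE 0.20, limma p = 0.189). Control 9 and Control 10 were highest at 7.14 and 7.21, with AdipoQ-LPL 6 at 6.92, so the ranges overlapped. Ccl17 and Ccl22 were among pairs chosen after their values were seen, and so given without a test. Their r was 0.73 in the first set and 0.69 in the second. Without the mice farthest from the median of Ccl17 it was 0.41 and 0.34. Such values were not particular to neighbours. Ccl9 with Ccr2 had r = 0.89 and 0.72, and Cxcl16 with Cx3cr1 had 0.88 and 0.57, each pair on chromosomes 11 and 9. Ccl6 with Ccl11, both on chromosome 11, had 0.81 and 0.76. These pairs were also chosen after their values were seen. Without the mice farthest from the median of the first gene, Ccl9 with Ccr2 had r = 0.83 and 0.48. Cxcl16 with Cx3cr1 then had 0.90 and 0.60, and Ccl6 with Ccl11 had 0.66 and 0.30. Ccl17 and Ccl22 lie near each other on chromosome 8, on either side of Cx3cl1. The Ccl17 promoter is printed for its match to the spacing that STAT6, the factor downstream of interleukin-4, prefers (TTC, 4 bases of any kind, GAA, on both strands, in capitals, found in 6.95% of all promoters and in no other member with a promoter entry). It is from RefSeq on GRCm38.p6, 5′ to 3′, 250 bases before the start and 50 after it.
Ccl17, chr8:94810203-94810502, plus strand: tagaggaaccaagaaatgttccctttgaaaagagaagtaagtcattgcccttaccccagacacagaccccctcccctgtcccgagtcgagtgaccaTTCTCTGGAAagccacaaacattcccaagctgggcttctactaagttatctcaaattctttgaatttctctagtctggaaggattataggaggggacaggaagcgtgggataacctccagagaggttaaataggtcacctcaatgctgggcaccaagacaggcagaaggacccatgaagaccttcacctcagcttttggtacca
The ranges of the dendritic cell markers overlapped: their mean lay between 6.51 and 7.13 in Control and between 6.58 and 7.06 in AdipoQ-LPL mice. Of 7 differences, 6 were below 0 over all mice and 2 with the block, where 21.1% and 53.7% of all clusters were above 0. The part of these markers in the values of Ccl17 and Ccl22 was not tested. Ccl20, the ligand of Ccr6, and Ccl1, a ligand of Ccr8, each had a difference of 0.01 (SE 0.09 and 0.10).

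Ccl28, which draws plasma cells and T cells to mucosal surfaces, was the most variable member, with an SD of 1.05 between mice of the same genotype and set. It ran from 5.66 through 6.10 to 8.92 in Control and from 5.54 through 5.94 to 8.56 in AdipoQ-LPL mice. The mice fell apart: Control 3 at 8.76, Control 7 at 8.92, Control 11 at 7.81, AdipoQ-LPL 8 at 8.56 and AdipoQ-LPL 10 at 7.01 stood above the other 19, which lay between 5.54 and 6.36. Both genotypes and both number sets held such mice. The difference between genotypes was -0.49 (SE 0.38, limma p = 0.213).

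The same 5 mice were the highest for genes of motile cilia, which multiciliated epithelia express and adipocytes do not use. Over 8 such genes (Foxj1, Dnahc5, Dnahc9, Dnaic1, Rsph1, Spag6, Tekt1 and Hydin, a list chosen after the values were seen) their mean log2 value was 6.38 to 7.95, against 5.30 to 5.75 in the other 19. Cx3cl1, the membrane-bound ligand fractalkine, lay between 6.79 and 7.69 in the 5 mice and between 6.29 and 6.95 in the rest. Cxcl12 lay between 9.39 and 9.86 against 9.16 and 9.53, and Cxcl16 between 8.29 and 8.56 against 7.62 and 8.59. The ranges of these 3 genes overlapped, unlike that of Ccl28.

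Without the 5 mice, a comparison added after the values were seen, the genotype difference of Ccl28 was -0.20 (limma p = 0.0549), that of Cx3cl1 -0.07 (limma p = 0.368) and that of Cxcl12 -0.06 (limma p = 0.394). Over all mice Cx3cl1 had run from 6.29 through 6.62 to 7.69 in Control and from 6.33 through 6.50 to 6.86 in AdipoQ-LPL mice, which differ by -0.21 on the log2 scale (SE 0.12, limma p = 0.0978). The differences of Ccl28, Cx3cl1 and Cxcl12 were closer to 0 than over all mice. The mice left out held the highest Ccl28 values. Among them, Control 3, Control 7 and Control 11 also held the highest values of Cx3cl1 and Cxcl12. A move toward 0 was thus largely built into the choice and is no support for a cause. For Ccl28 the SE also fell, from 0.38 to 0.10. The difference of Cxcl11 in the same fit was 0.23 (limma p = 0.0103). Markers of epididymis, the organ beside this depot, also varied: their mean lay between 4.51 and 7.31 in Control and between 4.38 and 5.37 in AdipoQ-LPL mice. It was highest in Control 6 (7.31), Control 5 (6.45) and Control 9 (6.44), none of them among the 5 mice, which lay between 4.72 and 5.47. The part of ciliated or epididymal tissue in the chemokine values was not tested.

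**Figure D4:**
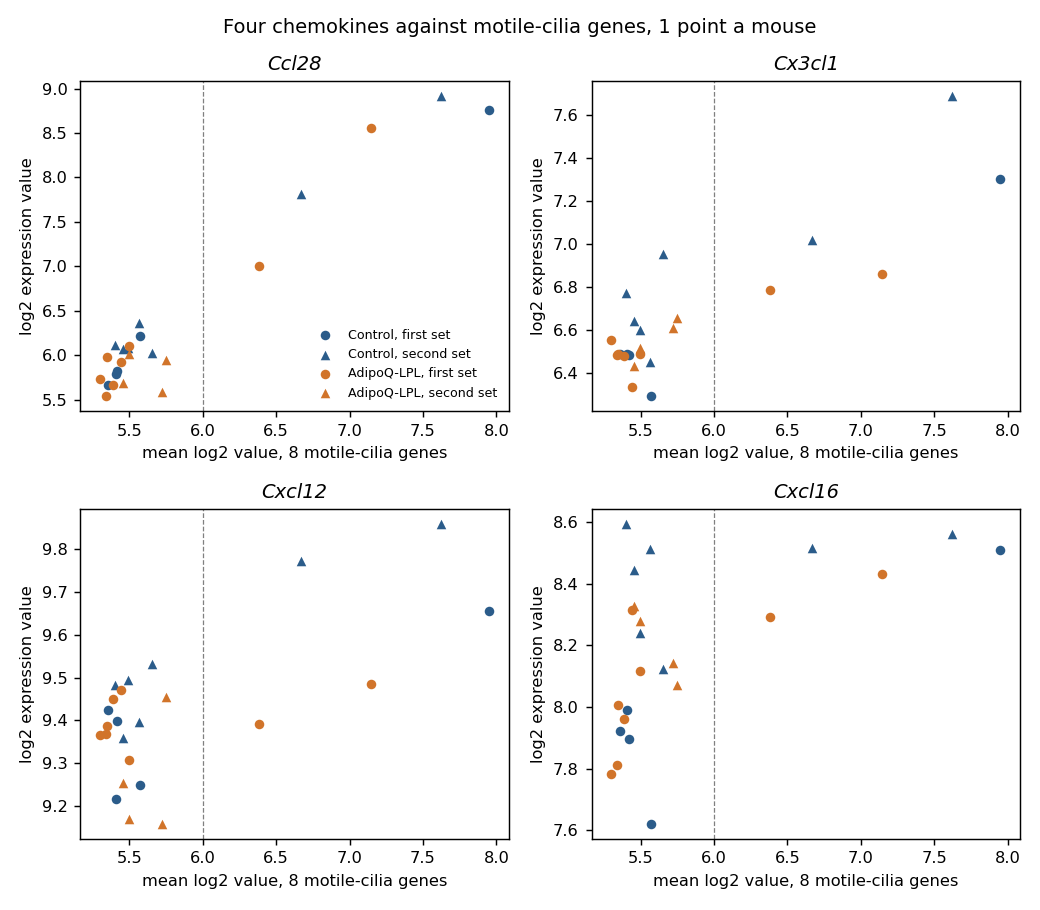
Log2 value of Ccl28, Cx3cl1, Cxcl12 and Cxcl16 against the mean log2 value of 8 motile-cilia genes, 1 point a mouse, with the dashed line at a mean of 6. The 5 mice to its right hold the highest Ccl28 values, from 7.01 to 8.92, and belong to both genotypes and both number sets.

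The remaining ligands of mucosa and skin gave no call, and their differences were below 0 over all mice and nearer to 0 with the block. Ccl27a, a skin chemokine that answers to Ccr10, ran from 7.43 through 7.93 to 8.12 in Control and from 7.39 through 7.57 to 8.01 in AdipoQ-LPL mice. Its difference of -0.16 (SE 0.10, limma p = 0.124) became -0.05 (SE 0.06) with the block. Ccl27b, a near-identical copy, ran from 7.15 through 7.69 to 7.86 and from 7.26 through 7.40 to 7.74, with -0.13 (SE 0.09) and -0.04 (SE 0.04). The array holds 5 clusters for the former and 4 for the latter, and probes of such copies can read both, so their values are uncertain and not separate evidence. Ccl25, the thymic and gut ligand of Ccr9, went from -0.14 (SE 0.12) to 0.01 (SE 0.05).

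The remaining receptors were those of fractalkine, of Xcl1 and of neutrophil and T cell chemokines. Cx3cr1, carried by resident macrophages and monocytes, ran from 6.44 through 7.44 to 7.63 in Control and from 6.85 through 7.26 to 7.46 in AdipoQ-LPL mice. The groups overlapped, the lowest value being a Control mouse of the first set. Its difference was -0.06 (SE 0.11), with 0.19 in the first set (exact permutation test, two-sided, p = 0.274, n = 5 and 8) and -0.16 in the second (exact permutation test, two-sided, p = 0.0333, n = 7 and 4, limma adjusted p = 0.504). Over all mice and with the block it had opposite signs (-0.06 and 0.03), within the error of each.

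Cxcr6, a receptor of T and NK cells, ran from 4.06 to 5.76 in Control and from 4.68 to 5.77 in AdipoQ-LPL mice. Its first-set means, 4.59 in Control and 4.95 in AdipoQ-LPL mice, were both under the floor of 5. It entered the fits through the second set alone. Within the first set its difference was 0.37 (limma p = 0.0181, adjusted p = 0.559), which made it the only member at the thresholds of the study there, beside 1.09% of all clusters. In the second set it was -0.04 (limma p = 0.689), over all mice -0.0029 (SE 0.17, limma p = 0.986) and with the block 0.18 (SE 0.10, limma p = 0.0774), and the difference between the sets was -0.41 (limma interaction, p = 0.0352, adjusted p = 0.617). Within the second set the only such member was Cxcr1, a receptor of neutrophil chemokines, with 0.38 (limma p = 0.00516, adjusted p = 0.406), beside 1.53% of all clusters. Neither was called within a set by the adjusted p, beside 0.0099% and 0.00495% of all clusters. With the block, Cxcr1 had a difference of 0.21 (SE 0.10, limma p = 0.0418), and Cxcr2, the main chemokine receptor of neutrophils, -0.02 (SE 0.10). In all, 4 members had an unadjusted p under 0.05 with the block (Cxcl11, Ccl4, Cxcr3 and Cxcr1, all above 0), beside 8.37% of all clusters. Xcl1, a ligand made by NK cells and CD8 T cells, had a difference of -0.12 (SE 0.14) over all mice and 0.03 (SE 0.07) with the block, and its dendritic cell receptor Xcr1 had 0.06 (SE 0.11) and 0.12 (SE 0.10).

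The neutrophil ligands among the members (Cxcl1, Cxcl2, Cxcl3, Cxcl5 and Cxcl15) were mostly below the floor. Ppbp, whose symbol is outside the rule for members, is given with the platelet chemokines. Of these members Cxcl1 alone was tested, and ran from 5.20 through 5.93 to 6.26 in Control and from 5.43 through 5.78 to 6.31 in AdipoQ-LPL mice. Its difference was -0.0027 (SE 0.13) over all mice and 0.12 (SE 0.09) with the block. Cxcl2, Cxcl3, Cxcl5 and Cxcl15 had group means under 5, as did Ccl26 and the receptors Ccr3, Ccr4, Ccr6, Ccr8 and Ccr9. Over these 10 genes the group means lay between 3.38 and 4.95, and none entered the genotype fit. Without the floor, limma fitted all 51 members and called 0, with 1 at an unadjusted p under 0.05. Neutrophil markers were low as well, with 6 of 9 under the floor and Ly6g at 3.83 in Control and 3.66 in AdipoQ-LPL mice. Among promoters with an entry, Cxcl1, Cxcl2 and Cxcl3 each held the same NF-kB match, GGGAATTTCC. The NF-kB motif was found in 9 of the 38 members with a promoter entry (the other 6 being Ccl20, Ccl27a, Ccl9, Ccr3, Ccr6 and Cxcl10). Counted by promoter, it was in 9 of the 45 of members, beside 4.51% of all 32851.

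The members differed between the number sets far more than between the genotypes. The second set was higher for 25 of the 41 members at an adjusted p under 0.05 (limma, genotype in the model) and lower for 0, beside 81.9% of all clusters higher and 1.04% lower. The share of members was thus below that of all clusters. Differences ran from -0.23 for Ccr1 to 0.73 for Cxcr6, with a median of 0.35 over the members and 0.33 over all clusters. Cxcr6 averaged 4.81 in the first set and 5.50 in the second, and Ccr10 4.96 and 5.52. Both reached the floor of 5 through the second set alone. The floor thus favoured a higher second set for these genes, and their set differences are no support for one. The sets did not overlap for 5 of the 41 members (Cxcl17, Ccl25, Xcl1, Cxcr6 and Ccl27b), beside 22.6% of all clusters, a larger share. Cxcl17 lay between 5.94 and 6.34 in the first set and between 6.59 and 6.99 in the second, and Ccl25 between 6.22 and 6.68 and between 6.88 and 7.14.

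With arrays centred (the median of each subtracted), 8 members were called between the sets, 4 higher (Cxcl17 by 0.32, Ccl25 by 0.25, Xcl1 by 0.27 and Cxcr6 by 0.38) and 4 lower (Cxcl12, Ccr1, Cxcl11 and Ccl20, with differences of -0.33, -0.58, -0.42 and -0.32), beside 13.9% of all clusters higher and 18.6% lower. Without centring, these 4 lower members had differences of 0.02, -0.23, -0.07 and 0.03, so their call came with the centring. For Cxcr6 the floor favoured a higher second set here too. Of the monocyte ligands, none of Ccl2, Ccl7, Ccl8 and Ccl12 was called between the sets in either form. The plot of number sets shows both.

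**Figure D5:**
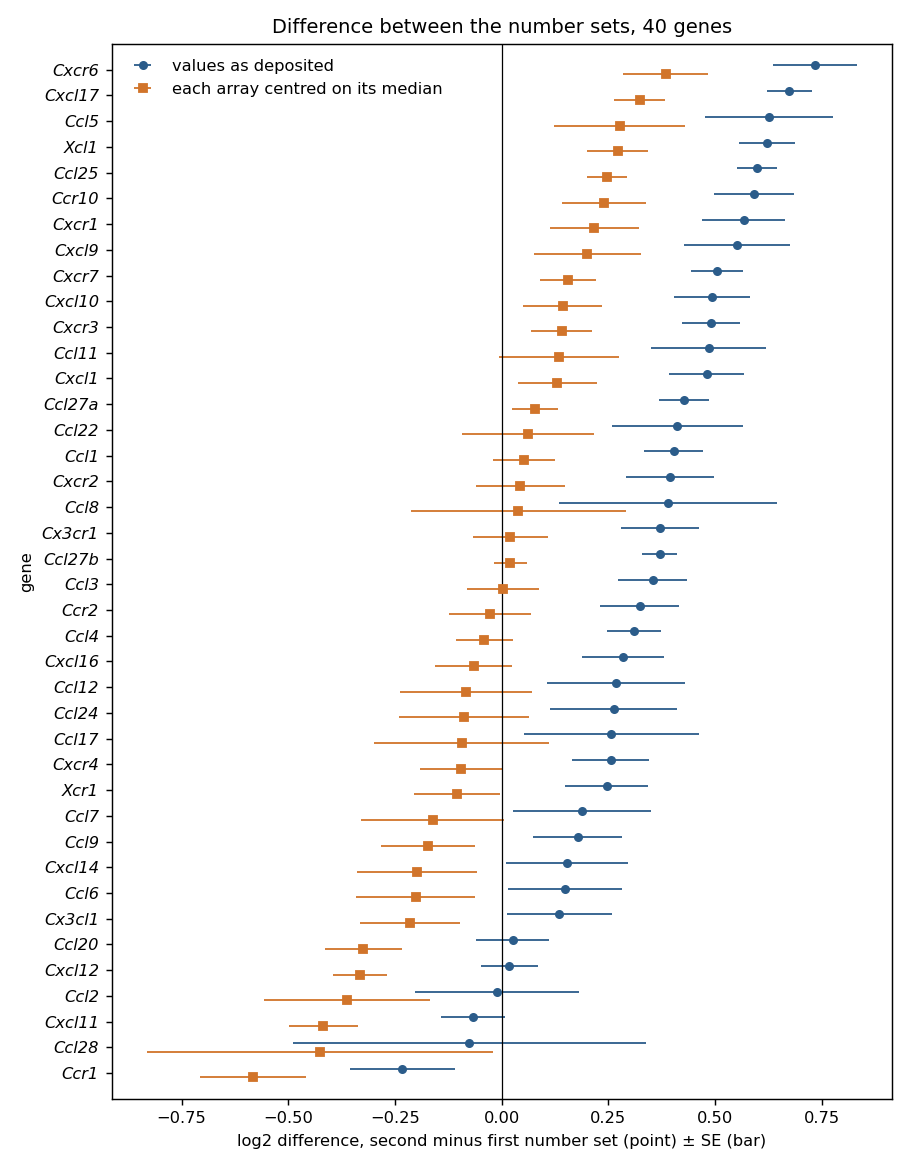
Log2 difference (second minus first number set) of 40 of the 41 tested members, with genes on the vertical axis and bars of ± SE. Circles, from the values as deposited, lie mostly above 0 (the median over all 41 is 0.35), and squares, from arrays centred on their medians, lie on both sides of 0.

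Genes around the chemokine system gave no call either. Of the 13 signalling genes measured (G protein subunits, arrestins, receptor kinases, the phosphoinositide kinase Pik3cg and regulators), 5 were above 0 and 8 below, beside 21.1% of all clusters above 0. An unadjusted p under 0.05 was found for 2, beside 5.63% of all clusters. These were Rgs1 and Rgs2, which shorten G protein signals. Rgs1 ran from 4.67 through 5.07 to 5.78 in Control and from 4.37 through 4.83 to 4.90 in AdipoQ-LPL mice, which differ by -0.35 on the log2 scale (SE 0.11, limma p = 0.0033, adjusted p = 0.691) over all mice and by -0.29 with the block. It entered the fit through its Control mean of 5.08 alone, its AdipoQ-LPL mean of 4.73 being under the floor, so the filter itself favoured a lower AdipoQ-LPL value and the p is no support for one. Rgs2 ran from 7.80 through 8.30 to 9.25 and from 7.77 through 7.93 to 8.36, a difference of -0.30 (SE 0.14, limma p = 0.0394, adjusted p = 0.691), or -0.23 (SE 0.13) with the block. The groups overlapped for both, and AdipoQ-LPL mice lacked the upper values of the Control group.

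Of 17 tested NF-kB feedback and target genes, all 17 were below 0 over all mice and 8 were above 0 with the block, with medians of -0.11 and -0.02. Of all clusters, 21.1% and 53.7% were above 0 in these fits, with medians of -0.08 and 0.01. Nfkb2 had a difference of -0.18 (SE 0.09, limma p = 0.0596) and Sele, the endothelial selectin, of -0.17 (SE 0.10, limma p = 0.0918). The atypical receptors and their relatives, which clear chemokines or bind others, gave 2 of 5 above 0, with -0.07 (SE 0.12) for Ccrl2 and -0.09 (SE 0.16) for Ccrl1, which became 0.04 and 0.09 with the block. The platelet chemokines Ppbp and Pf4 had differences of -0.28 (SE 0.18, limma p = 0.137) and 0.06 (SE 0.13). Precision here is limited by how many arrays there are, and a p that misses its threshold does not show that the groups were alike.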

How the data were processed

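RNA from the perigonadal fat of each mouse was hybridised to an Affymetrix mouse array, and per the labels each sample is a separate mouse. The deposited values are log2 expression values per transcript cluster that the authors normalised by RMA and handled in Partek (versions not given in the sources used here). The deposited workbook gave another kind of unit, the cluster identifier with its gene symbol, which was used for names. Its value columns hold the authors' own comparison and were not used, and 0 per-sample columns were left out. Genome build is not stated for the files. Of 41345 clusters, 27037 had a symbol and 20208 reached the floor of 5 (mean on the log2 scale in 1 or both genotypes).

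Genotypes were compared by lmFit and eBayes of limma 3.58.1 (R 4.3.3). Tests were two-sided and adjusted by Benjamini-Hochberg over the clusters tested. Single values within a number set used exact permutation tests, and correlations used 100000 permutations. The script was tested on simulated data. The pairs, lists and members were chosen with earlier results of these data known. Values are given in full for the 12 members of lowest p, the 8 of largest SD within genotype and set, and Ccl2, Ccr2, Cxcl12 and Cx3cr1. For the pathway lists, the 2 genes of lowest p are named. Other genes are given as further description and some were singled out after their values were seen. Promoters were matched to members by symbol in a RefSeq table (GRCm38.p6), which held 38 of the 51. A single tested member is counted in the totals and is otherwise not reported here. Alternatives were array centring, quantile normalisation, blocks, subsets of mice, other models, cluster means and no floor.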

Additional observations from a re-analysis of the deposited data

Results flagged for a closer look

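Within the 4 groups of genotype and number set, 68 groups of values were examined for the 17 genes with full values, and 7 held a mouse whose gap to its neighbours was large against the range of its group (Dixon's 95% limit). Chance alone flags about 1 group in 20 when groups are independent and genes are not chosen by their spread. Here some genes, Ccl28, Ccl8 and Ccl17 among them, were chosen for a large SD within genotype and set. The groups are also not independent, as Control 3 was flagged for more than 1 gene. The 7 flagged groups therefore cannot be judged against that rate.

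In the first set, Control 3 stood above the other 4 Control mice for Ccl28 (8.76 against 5.66 to 6.22), for Cx3cl1 (7.31 against 6.29 to 6.49) and for Ccl27a (7.76 against 7.43 to 7.48). Also in the first set, AdipoQ-LPL 8 was highest of 8 for Ccl27a (7.87 against 7.39 to 7.61), and AdipoQ-LPL 6 was highest for Ccl17 (6.92 against 5.46 to 5.97). In the second set, AdipoQ-LPL 2 was highest of 4 for Ccl8 (8.84 against 7.13 to 7.34), and AdipoQ-LPL 3 was lowest for Ccr2 (8.47 against 8.69 to 8.72). Control 3 and AdipoQ-LPL 8 are among the mice with high motile-cilia genes. The part of that tissue in these values was not tested.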

How the results depend on the processing

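No member was called between genotypes under any alternative except array weights. With array weights fitted without the number set, 24 members were called (22 lower) and 14 met the thresholds of the study. The same fit called 14984 of 20208 clusters and put 6784 past those thresholds. The weights were 0.25 to 0.45 for Control mice of the first set and 0.30 to 0.35 for AdipoQ-LPL mice of the second, so the mice that balance the sets counted least. The methods' t-test put 0 members and 81 clusters past the thresholds of the study and called 0 members and 1 cluster after Benjamini-Hochberg. At the thresholds of the study, 1 member passed with arrays centred (Cxcl11), without the AdipoQ-LPL mice numbered 422 to 437 (Cxcr1), in the first set alone (Cxcr6) and in the second alone (Cxcr1). Of all 20208 clusters, 117, 74, 220 and 310 passed, in the same order. Both first-set means of Cxcr6 lay under the floor. With each mouse left out in turn, 0 to 1 passed (Ccl22 without Control 4) and 0 were called in each of the 24 fits. Between number sets, 8 members were called with arrays centred and 9 after quantile normalisation, in place of 25, and 25 to 28 with each mouse left out. Over all 20208 clusters the calls were 6573 with arrays centred, 6600 after quantile normalisation and 16753 as deposited. The interaction gave 0 members under each alternative. Of 16 correlations, 5 passed and 2 did without the mice farthest from the median.

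With the replicate number of the labels as a block, 0 members were called and 0 met the thresholds of the study. Numbers did not pair the mice: over 12 pairs the correlation of deviations ran from -0.40 to 0.38 and was above 0.1 in 1. Differences of the 17 genes with full values changed sign in 1 gene (Cx3cr1) with the number set as a block, in 6 in the first set alone and in 2 in the second alone. Leaving out 1 mouse changed the sign of Ccl2 alone, in 5 of 24 fits.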
